A study of Mus musculus with 10 samples.

Results

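The genes Il6, Il10, Il12a, Il12b, Il23a, Il27, Csf2, Csf3, Lif and Ifnb1 encode secreted interleukins, colony-stimulating factors and related cytokines, and p65 occupancy at these 10 genes was read from 9 CUT&Tag peak lists. A peak was assigned to a gene when it overlapped the gene body or the 10 kb on either side of it, here called the gene window, in the mouse assembly GRCm38. The rule used position alone and not the height of a peak. The genes are 10 of the 21883 protein-coding genes on chromosomes 1 to 19, X and Y. Their windows held 199 of the 536143 peaks in all lists, which merged into 61 of 235070 regions when peaks that shared at least 1 bp were joined. Every one of the 10 genes had a peak in at least 1 library, and Il10, Il23a, Il27 and Csf3 had one in all 9.

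The cells were RAW264.7, a macrophage line of wild-type genotype from a male mouse tumour induced by Abelson murine leukemia virus, so all values describe a single transformed line. They were treated for 12 h with DMSO alone (DMSO, 3 libraries), with DMSO and lipopolysaccharide, a cell-wall component of Gram-negative bacteria that activates macrophages (LPS, 3 libraries), or with LPS and skatole, an indole compound that gut bacteria make from tryptophan (LPS+Skatole, 3 libraries). CUT&Tag uses an antibody to tether a transposase to a chromatin protein, with 200000 cells per library. According to the labels the antibody was against p65, while the methods of the study name one against phosphorylated p65, and which form was captured was not tested. A Blank sample was not analysed here, so no value was corrected here for signal without primary antibody. Whether the authors called peaks against it is not given in the sources used. The labels do not say whether the 3 libraries of a group came from separate cultures, so the p-values measure the spread between these libraries, which may be technical.

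p65, also called RelA, is the transactivating subunit of the most abundant NF-κB dimer. In resting macrophages the dimer is held in the cytoplasm by IκB proteins, and signalling from the LPS receptor Toll-like receptor 4 releases it to enter the nucleus and bind κB sites in DNA. Genes of inflammatory cytokines, such as Il6 and Il12b, are textbook targets of NF-κB in LPS-treated macrophages, and Ifnb1 carries a κB site in its enhancer beside sites for interferon regulatory factors and AP-1.

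The libraries differed in depth and list length between the groups. The lists held 37551 to 43450 peaks in DMSO, 55637 to 63498 in LPS and 78136 to 80153 in LPS+Skatole libraries. The genome background, in fragments per position, was 1.09 to 1.40, 2.23 to 2.34 and 2.26 to 2.39. The weakest summit called stood 6.44 to 7.34 times above this background in DMSO libraries and 4.59 to 4.94 times in the others, so a site of the same enrichment could be listed in an LPS library and missed in a DMSO library. How much of each difference in peak number this accounts for was not tested. All 8 macrophage marker genes examined had a peak in every library, against 2 of 4 T cell, 1 of 4 B cell, 0 of 3 hepatocyte and 0 of 3 chondrocyte genes. Over all protein-coding genes this share was 54.2%. A p65 peak near a marker gene describes occupancy and not expression. The marker windows differ in length, and these counts carry no test.

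Promoter sequence was matched by symbol to RefSeq windows of GRCm38.p6 for 6 of the 10 genes, Il6, Il12a, Il12b, Csf2, Lif and Ifnb1. Il10, Il23a, Il27 and Csf3 had no entry. The 250 bases before the start site were searched on both strands for the plain κB pattern GGGNNNTTCC, in which N is any base. The pattern was found in 1527 of 32851 promoter windows (4.65%), and among the members it was found once in Il6 and once in Ifnb1. A looser pattern that contains it, GGGNNNNNCC, was found in 45.8% of all windows and in 4 of the 7 windows of the members (Il6, Ifnb1, Lif and 1 of the 2 windows of Il12a). The windows below are those of the 3 genes whose summits came closest to a start site among the genes with a sequence. They span chr5:30012864-30013113 on the plus strand for Il6, chr4:88522795-88523044 on the minus strand for Ifnb1 and chr11:54249900-54250149 on the minus strand for Csf2, read 5′ to 3′ with the match to the first pattern in capitals.
Il6: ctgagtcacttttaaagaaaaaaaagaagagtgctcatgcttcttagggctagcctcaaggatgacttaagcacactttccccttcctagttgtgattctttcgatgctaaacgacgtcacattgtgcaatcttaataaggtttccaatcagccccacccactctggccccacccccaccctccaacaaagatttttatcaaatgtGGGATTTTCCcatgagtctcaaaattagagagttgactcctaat
Ifnb1: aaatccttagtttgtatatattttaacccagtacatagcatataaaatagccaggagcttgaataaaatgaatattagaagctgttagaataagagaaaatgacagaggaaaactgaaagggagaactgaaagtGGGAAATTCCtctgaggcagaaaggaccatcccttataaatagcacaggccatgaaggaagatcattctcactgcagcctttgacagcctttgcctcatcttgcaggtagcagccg
Csf2: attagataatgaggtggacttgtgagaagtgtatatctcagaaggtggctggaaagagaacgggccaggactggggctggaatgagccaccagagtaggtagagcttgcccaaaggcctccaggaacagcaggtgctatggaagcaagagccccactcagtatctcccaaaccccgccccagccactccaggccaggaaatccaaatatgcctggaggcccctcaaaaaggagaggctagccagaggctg
The match in Il6 lay 44 to 35 bases before the start site. The Il6 window was overlapped by a peak in 4 libraries, LPS 1 and LPS+Skatole 1, 2 and 3, and in 3 of them, all but LPS+Skatole 3, the peak covered the match. The match in Ifnb1 lay 116 to 107 bases before the start site. Its window was overlapped by a peak in LPS+Skatole 1 alone, and 20 bases separated the match from that peak. The Csf2 window held no match to either pattern and was overlapped by no peak. A match describes the letters of the reference and is not a measured binding site.

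As a set, the 10 genes held more p65 peaks in both LPS-treated groups than in DMSO, where the lists were also shorter. The number in all 10 windows together was 13, 15 and 12 in DMSO libraries (13.3 ± 1.53, SD, n = 3), 23, 22 and 25 in LPS (23.3 ± 1.53) and 29, 33 and 27 in LPS+Skatole (29.7 ± 3.06). None of the 3 groups overlapped with another in this total. Per 10000 peaks of a list, the same windows held 3.28 ± 0.304, 3.95 ± 0.174 and 3.76 ± 0.432 peaks. On this scale the LPS libraries still lay above the DMSO libraries, while the LPS+Skatole libraries overlapped with both. The ratio of the mean totals was 1.75 for LPS over DMSO, against 1.40 over all protein-coding genes and 1.45 for the length of the lists. Between LPS+Skatole and LPS it was 1.27 against 1.24 and 1.34, and for LPS+Skatole over DMSO 2.23 against 1.73 and 1.94. When each list was shortened to its strongest 37551 peaks, the LPS over DMSO ratio was 1.28. In the total, LPS 1 then held as many peaks as DMSO 2, so LPS and DMSO no longer lay apart. The ratio over all genes was not computed for these shortened lists.

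**Figure D1:**
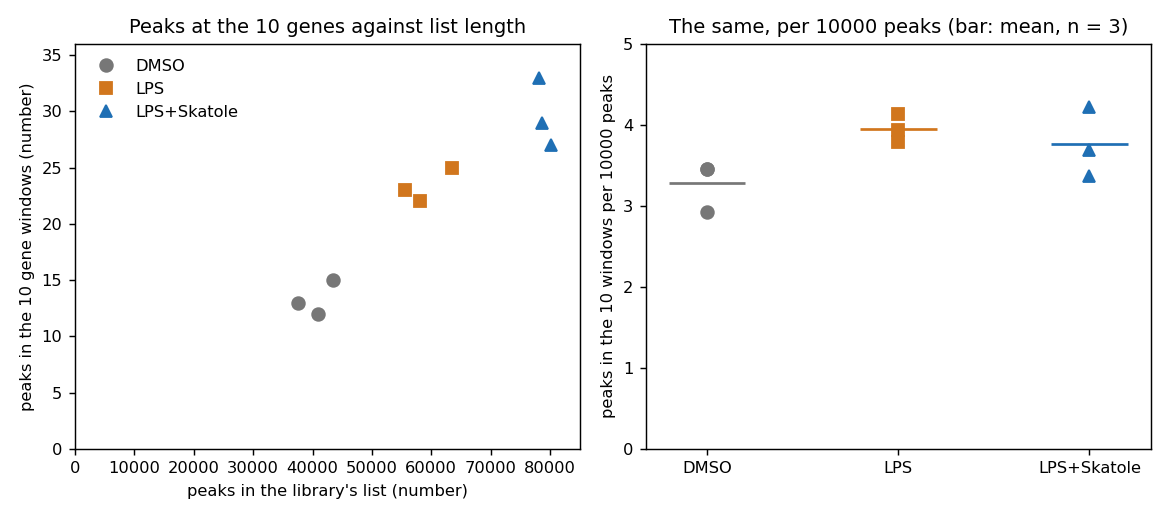
The left panel plots the number of p65 peaks in the 10 gene windows against the number of peaks in the list of each library, and the right panel plots the same number per 10000 peaks of the list, with 1 point per library and a bar at the group mean (n = 3), where the points of 2 DMSO libraries coincide. On the left the groups are apart on both axes, from 12 to 15 peaks in DMSO to 27 to 33 in LPS+Skatole, of which the library with the longest list holds the 27, while on the right the LPS+Skatole points overlap with those of both other groups.

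Gene by gene, Lif and Csf3 were the only members with more peaks in every LPS library than in every DMSO library. They are 2 of 10 genes, read against 13.1% of the 18188 genes tested (2379 genes). No member had fewer peaks in LPS than in DMSO without overlap, against 0.390% of genes. In the comparison of LPS+Skatole with DMSO, 4 of the 10 had more peaks without overlap (Il10, Il27, Csf3 and Lif), against 26.0% of genes, and none had fewer, against 0.178%. Between LPS+Skatole and LPS, none of the 10 had more peaks without overlap, against 9.27% of the 19135 genes with a peak in either group. None had fewer, against 0.789%, and Il12a had no peak in either group. With lists of equal length, or with counts scaled down to the shallowest library, no member kept this separation of LPS from DMSO. Over all genes the number above went from 2379 to 531 and 752. Nor did any member keep it with a 3 kb window or when the summit had to lie in the window. In these settings 1797 and 2337 of all genes were above. Against DMSO, LPS+Skatole kept it at Lif alone with lists of equal length, and at Il10 and Lif with scaled counts. Over all genes 4960 became 613 and 2145. With a 3 kb window LPS+Skatole kept it at Lif and Csf3, and 3811 of all genes were above. With lists of equal length and scaled counts, the number of genes below without overlap went the other way. It went from 71 to 434 and 315 when LPS was set against DMSO, and from 34 to 611 and 131 when LPS+Skatole was. For each of these non-overlapping pairs the two-sided exact permutation p was 0.1, the smallest that 3 libraries against 3 can give. A joint exact permutation test over the 280 divisions of the libraries into 3 groups gave its lowest p among the members at Lif (p = 0.00714, Benjamini-Hochberg adjusted p = 0.259 over all genes), followed by Csf3 (exact p = 0.0571) and Il27 (exact p = 0.0929). No gene of the whole table passed an adjusted p of 0.05 in this test, whose smallest possible p is 0.00357.

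**Figure D2:**
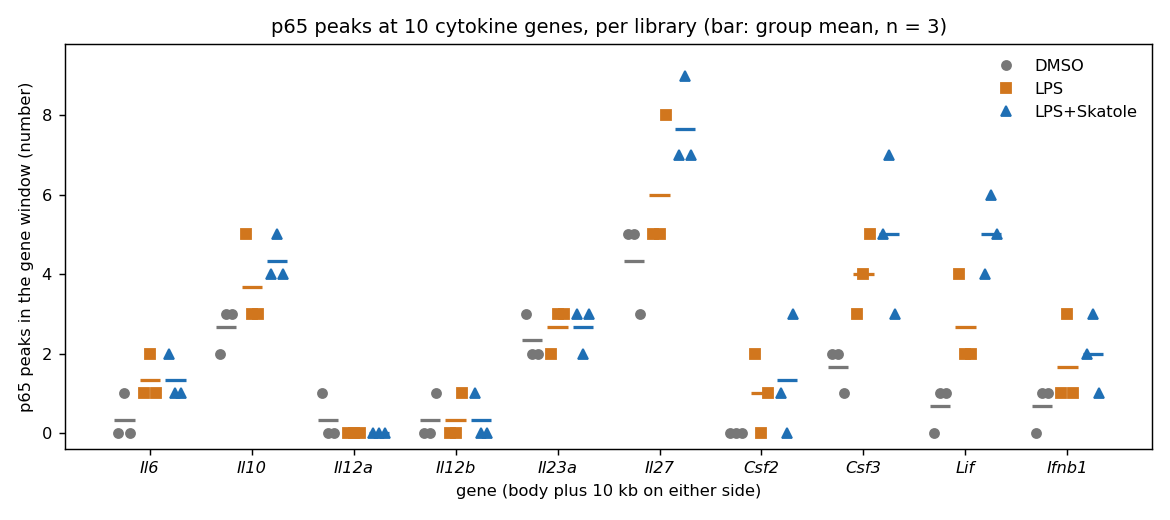
The vertical axis plots the number of p65 peaks in the window of each of the 10 genes, with 1 point per library and a bar at the group mean (n = 3). Lif and Csf3 have more peaks in all 3 LPS libraries than in any DMSO library, whereas Il12a and Il12b never exceed 1 peak.

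Binding was measured as the number of DNA fragments at the summit of a peak (summit count). It was compared between libraries as the log2 of the count over the genome background, in limma fits over all regions with a peak in all 6 libraries of a pair. Of the member regions, 7 entered the fit of LPS against DMSO, 14 that of LPS+Skatole against LPS and 7 that of LPS+Skatole against DMSO. Values were centred on the median of the regions fitted. Between the groups of a pair this took out a shift of -0.23, 0.32 and 0.07 on the log2 scale, so differences are relative to that shift. After centring, the median difference over all regions fitted was -0.02, -0.05 and -0.09. The fits called 0 of the member regions at an adjusted p under 0.05 in every pair. Over all regions fitted, 1.01% were called higher and 0.431% lower in LPS than in DMSO, 0.0758% higher and 0.162% lower in LPS+Skatole than in LPS, and 3.11% higher and 3.40% lower in LPS+Skatole than in DMSO. At an unadjusted p under 0.05 the limma fits held 2064 of 14394, 2423 of 19799 and 3138 of 14504 regions, and among the member regions none. The presence of regions was compared by a rule without a test, in which a region was gained when all 3 libraries of one group and none of the other had a peak in it, and lost in the opposite case. By this rule, 2 of the 45 member regions with a peak in LPS or DMSO were gained in LPS (1 at Il6 and 1 in the Il27 window), against 1.65% of the 140204 regions with a peak in either group, and none was lost, against 0.0685%. In LPS+Skatole against LPS, none of 58 member regions was gained, against 0.583% of 204430 regions, or lost, against 0.129%. In LPS+Skatole against DMSO, 4 of 47 were gained (at Il6, Lif, Csf3 and in the Il27 window), against 2.36% of 184201 regions, and none was lost, against 0.0434%. With regions built from summits at most 250 bases apart, 0 member regions were gained in LPS and 0 in LPS+Skatole against DMSO. Over all regions 2272 and 3671 were then gained, in place of 2314 and 4340. With lists of equal length 0 and 1 member regions were gained, and 1399 and 1972 over all regions.

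**Figure D3:**
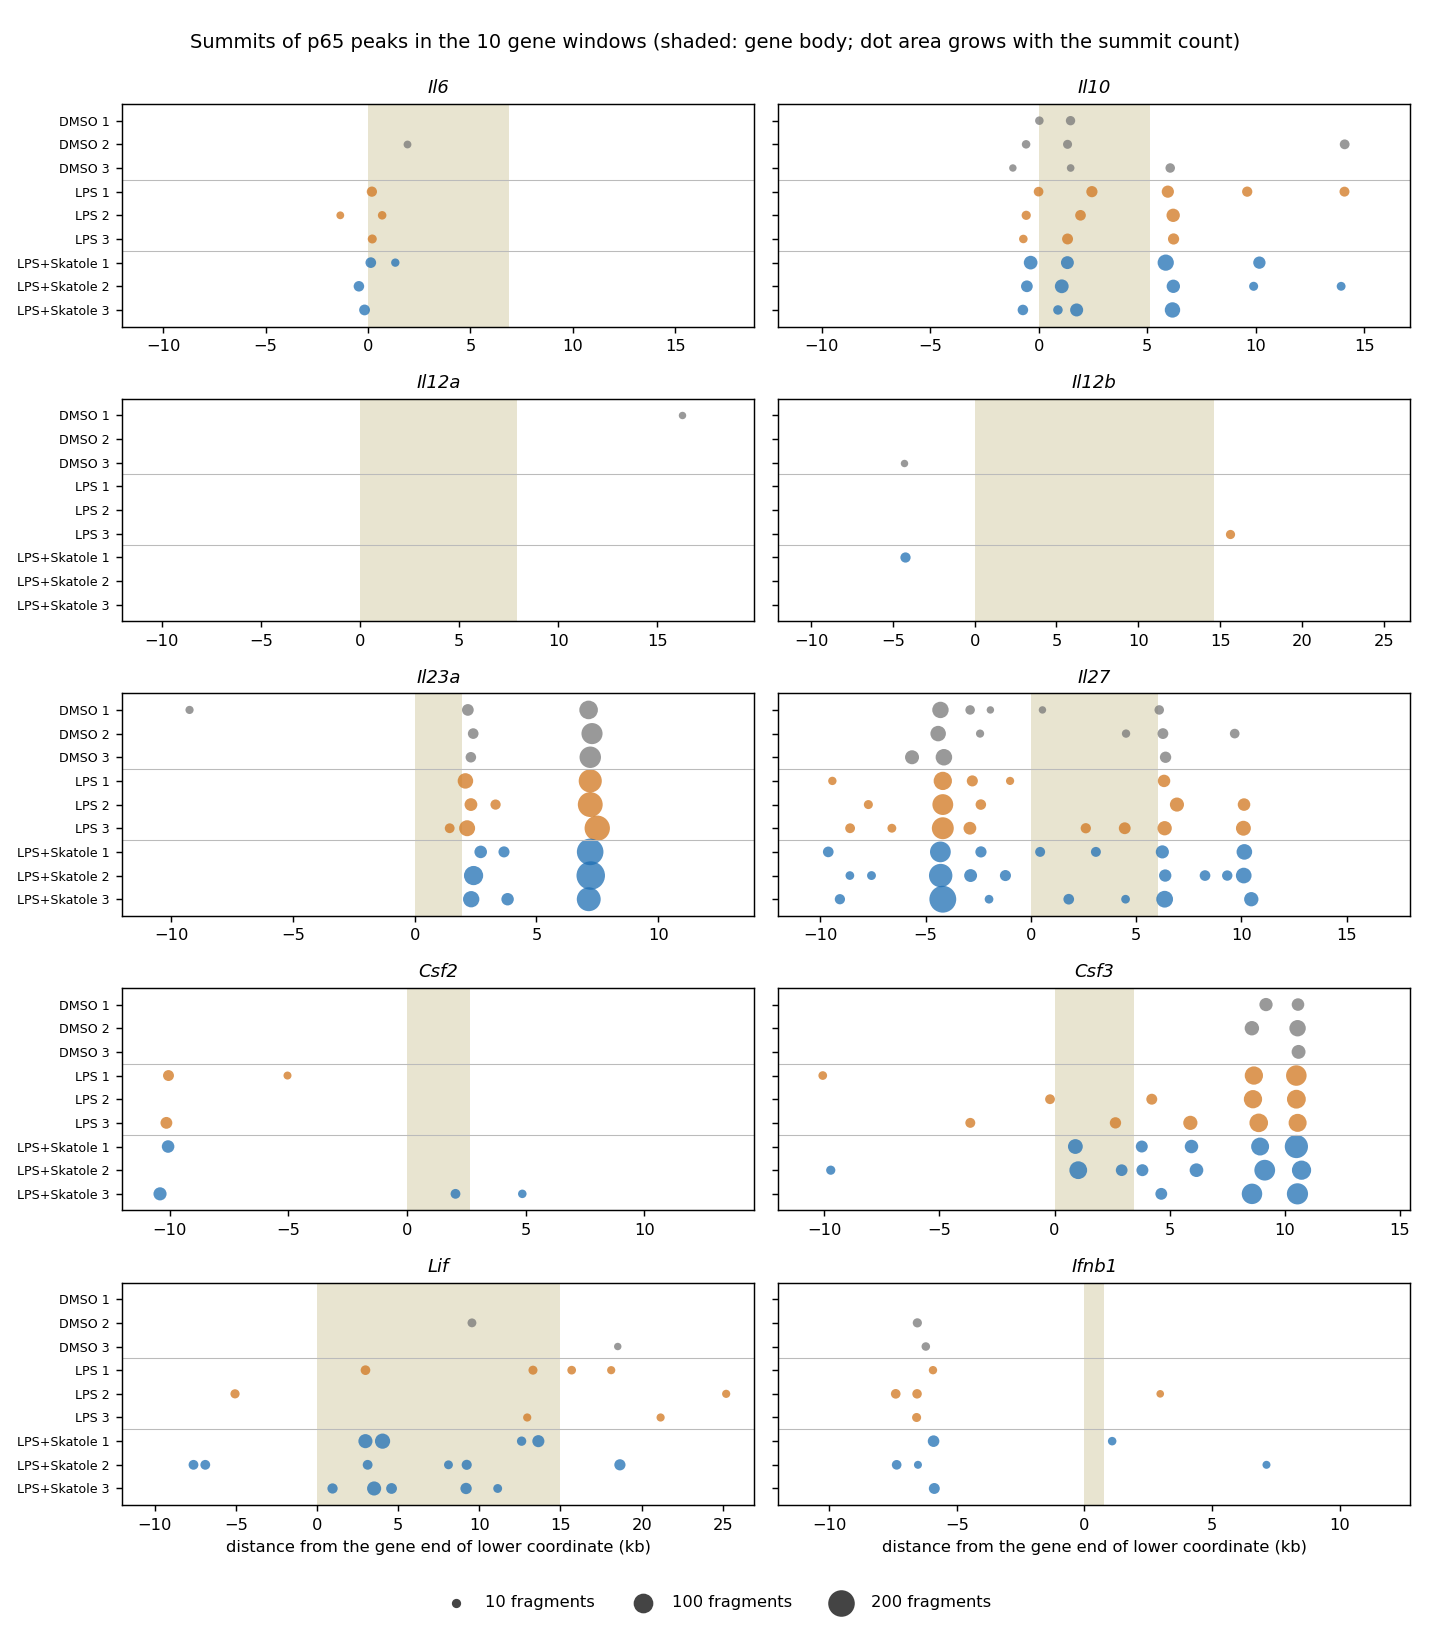
Each panel plots the summits of p65 peaks in the window of 1 gene by their distance (kb) from the gene end of lower genome coordinate, with 1 row per library, the gene body shaded and a dot area that grows with the summit count (fragments). Summits at the start of Il6 appear in the LPS and LPS+Skatole rows and in no DMSO row, while the Il10 and Il23a columns of summits run through the rows of all 3 groups.

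Il6 encodes interleukin 6, a cytokine of fever and the acute-phase response. Its window, chr5:30003114-30029975, held 0, 1 and 0 peaks in DMSO, 1, 2 and 1 in LPS and 2, 1 and 1 in LPS+Skatole. The region that recurred, chr5:30012490-30013864, spans the start site and had a peak in 3 of 3 LPS and 3 of 3 LPS+Skatole libraries. No DMSO library had a peak in it. The only DMSO peak of the window, in DMSO 2, had its summit 1879 bases inside the gene with a count of 12. At the start region the summit counts were 27, 16 and 19 in LPS and 30, 29 and 31 in LPS+Skatole, which is 11.8, 7.19 and 8.11 times the genome background against 12.8, 12.8 and 12.9 times. On this scale, before median centring, the LPS+Skatole values were all above the LPS values. Centring took out a shift of 0.32 towards LPS+Skatole on the log2 scale for this pair. The share of all regions with such a separation was not counted. The log2 difference after median centring was 0.22 (SE 0.34, 95% interval -0.47 to 0.90, limma adjusted p = 0.846), so a difference in either direction was not detectable at these counts. With the deposited fold in place of the count over background it was -0.06. The weakest listed peak of the whole list stood at 7.34, 6.44 and 6.62 times in DMSO 1, 2 and 3. The value of LPS 2 is below the first of these and above the others, and the values of LPS 1, LPS 3 and all LPS+Skatole libraries are above all 3. With lists of equal length, and with counts scaled down to the shallowest library, the peak of LPS 2 was lost, which left the region in 2 LPS, 3 LPS+Skatole and 0 DMSO libraries.

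The Il6 summits did not coincide. They lay 185, 687 and 204 bases downstream of the start site in LPS, and 133 bases downstream, 448 bases upstream and 172 bases upstream in LPS+Skatole, a spread of 1135 bases in all. In their own lists these peaks stood at percentiles 66.7, 31.6 and 44.6 in LPS and 69.3, 61.0 and 62.6 in LPS+Skatole, where 100 is the strongest peak by −log10 p. They were therefore mid-list peaks in both groups. When regions were built from summits at most 250 bases apart instead of overlapping peaks, Il6 had no gained region in any pair.

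Lif encodes leukaemia inhibitory factor, which signals through the same gp130 co-receptor as interleukin 6. Its window, chr11:4247568-4282514, held 0, 1 and 1 peaks in DMSO, 4, 2 and 2 in LPS and 4, 6 and 5 in LPS+Skatole. The means were 0.667 ± 0.577, 2.67 ± 1.15 and 5 ± 1 (SD, n = 3), and both LPS-treated groups lay above DMSO without overlap. LPS 1, with 4 peaks, overlapped with the LPS+Skatole libraries (exact permutation p = 0.2). With counts scaled down to the shallowest library the numbers were 0, 1 and 1, then 2, 1 and 0, then 3, 5 and 4. The LPS+Skatole libraries then lay above both other groups, and the LPS libraries overlapped with DMSO. With lists of equal length LPS held 2, 0 and 0 peaks and LPS+Skatole 2, 3 and 2. A peak of LPS 2 straddled the window edge with its summit outside, and by summits in the window LPS held 4, 1 and 2 peaks and overlapped with the 0, 1 and 1 of DMSO.

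The Lif peaks were scattered. They formed 15 regions, and 10 of these came from a single library. The most recurrent one, chr11:4260300-4261144, lies inside the gene with its median summit 3049 bases from the nearer gene end. It had a peak in LPS 1 (count 23) and in all 3 LPS+Skatole libraries (59, 24 and 59), and in no DMSO library. Their percentiles were 30.6 in LPS 1 and 83.6, 36.6 and 40.3 in LPS+Skatole. With scaled counts the region remained in the 3 LPS+Skatole libraries and in no other, and with lists of equal length it was left in LPS+Skatole 1 alone. A second intragenic region, chr11:4261487-4262370, had peaks in LPS+Skatole 1 and 3 only (counts 70 and 31). In the same order the local background was 19.7 and 4.07, the deposited fold 3.43 and 6.32 and the percentile 60.9 and 58.9. The nearest summit to the start site, 953 bases downstream, was found in LPS+Skatole 3 alone with a count of 27.

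Il12a and Il12b encode the p35 and p40 chains of interleukin 12, the cytokine that drives type 1 helper T cells, and p40 is also a chain of interleukin 23. These 2 genes had the fewest peaks of the set. The window of Il12a, chr3:68680644-68708550, held a single peak in DMSO 1, with a count of 10 and a summit 8339 bases beyond the gene. It held none in any LPS or LPS+Skatole library. The window of Il12b, chr11:44390063-44424677, held 0, 0 and 1 peaks in DMSO, 0, 0 and 1 in LPS and 1, 0 and 0 in LPS+Skatole. In the region chr11:44395599-44395992, upstream of the gene, DMSO 3 had a summit 4340 bases before the start site (count 10) and LPS+Skatole 1 one 4249 bases before it (count 27). The peak of LPS 3 lay 987 bases beyond the other end of the gene (count 20). No peak touched the start site of either gene in these lists.

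Il23a encodes the p19 chain that pairs with p40 in interleukin 23. Its window, chr10:128286140-128308084, held 3, 2 and 2 peaks in DMSO, 2, 3 and 3 in LPS and 3, 2 and 3 in LPS+Skatole, a number that did not separate the groups. In the region chr10:128297723-128300151, whose median summit lay 418 bases outside the nearer end of Il23a, all 9 libraries had a peak. Its summit counts were 38, 30 and 29 in DMSO, 73, 47 and 78 in LPS and 45, 117 and 82 in LPS+Skatole. Over the genome background these are 25.9 ± 7.78, 28.7 ± 6.64 and 35.1 ± 16.3 times (SD, n = 3), and the groups overlapped. The log2 difference was 0.38 (95% interval -0.20 to 0.96, limma adjusted p = 0.599) for LPS against DMSO and -0.11 (95% interval -0.71 to 0.48, limma adjusted p = 0.911) for LPS+Skatole against LPS, where it was 0.20 without median centring. The region of the window with the highest summit counts, chr10:128302370-128304608, had its median summit 15 bases from an end of the neighbouring gene Pan2. Its counts ran from 109 to 268 over the 9 libraries. By −log10 p the region beside Il23a was the stronger one in LPS 1, LPS 3 and LPS+Skatole 3. Stat2 also lies in this window.

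Il27 encodes the p28 chain of interleukin 27, whose partner chain is made from Ebi3. Its window, chr7:126579009-126605035, held 5, 5 and 3 peaks in DMSO, 5, 5 and 8 in LPS and 7, 9 and 7 in LPS+Skatole. No other member had more peaks in any library, though Il10 had as many in DMSO 3 and LPS 1, and the LPS+Skatole libraries lay above the DMSO libraries without overlap. The window also overlaps Apobr and Cln3, and an end of Il27 was the nearest gene end for 5 of 13 peaks in DMSO, 7 of 18 in LPS and 11 of 23 in LPS+Skatole. The region with the highest mean percentile of all member regions in each of the groups, chr7:126582508-126585755, had its median summit inside Cln3 and 142 bases from an end of Apobr. Its counts were 83, 73 and 84 in DMSO, 105, 139 and 155 in LPS and 138, 178 and 237 in LPS+Skatole, and the strongest peak of each library in it stood between percentiles 96.0 and 99.8 of its list. DMSO 3 had another peak there, at percentile 93.8. Divided by the genome background, the counts were 76.2, 52.2 and 61.8 times in DMSO, 45.8, 62.5 and 66.1 times in LPS and 59.0, 78.7 and 99.0 times in LPS+Skatole. The groups overlapped on this scale, and the region of Il23a beside Pan2 had a higher mean on it in each group.

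Beside it, the region chr7:126585996-126588299 had its median summit inside Apobr, with counts of 22 and 14 in DMSO 1 and 2, 33, 29 and 47 in LPS and 34, 48 and 17 in LPS+Skatole. DMSO 3 had no peak in it. Its log2 difference of LPS+Skatole over LPS was -0.57 (95% interval -1.30 to 0.16, limma adjusted p = 0.537), and 0.25 with the deposited fold.

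Regions with their median summit inside Il27 had a peak in only 1 or 2 libraries each. A region across an end of Il27, chr7:126593064-126596013, had its median summit 276 bases outside the gene and a peak in all 9 libraries. Its counts were 22, 31 and 35 in DMSO, 44, 59 and 61 in LPS and 50, 43 and 87 in LPS+Skatole. The log2 difference was 0.28 (95% interval -0.29 to 0.85, limma adjusted p = 0.714) for LPS against DMSO and -0.26 (95% interval -0.86 to 0.34, limma adjusted p = 0.767) for LPS+Skatole against LPS. The first turned to -0.11 with the deposited fold, and the second to 0.05 without median centring. A region with its median summit 4095 bases beyond that end, chr7:126598423-126599598, had a peak in DMSO 2 (count 23), in LPS 2 and 3 (45 and 67) and in all 3 LPS+Skatole libraries (74, 75 and 61). The gained region of this window, chr7:126578256-126580968, lay inside Cln3 across the window edge and had a peak in all 6 LPS and LPS+Skatole libraries, 5 of which reached into the window, and in no DMSO library. With lists of equal length it remained in 2 LPS and 2 LPS+Skatole libraries.

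Il10 encodes interleukin 10, a cytokine that restrains macrophage activation. Its window, chr1:131009845-131034970, held 2, 3 and 3 peaks in DMSO, 5, 3 and 3 in LPS and 4, 5 and 4 in LPS+Skatole, and contains no other protein-coding gene. LPS+Skatole lay above DMSO without overlap, and LPS overlapped with both. All of its 32 peaks fell into 5 regions, and none of these was seen in 1 library only. The region chr1:131018172-131020355 lies over the gene end of lower coordinate, and its counts were 16, 16 and 10 in DMSO, 23, 20 and 16 in LPS and 55, 38 and 29 in LPS+Skatole. Over the genome background these were 11.2 ± 3.67, 8.61 ± 1.63 and 17.5 ± 5.73 times. Before median centring, which took out a shift of 0.32 towards LPS+Skatole on the log2 scale, every LPS+Skatole value was above every LPS value. How many of all regions separate in this way was not counted. The log2 difference of LPS+Skatole over LPS was 0.65 (SE 0.34, 95% interval -0.05 to 1.35, limma adjusted p = 0.446). It was the largest difference in size among the 14 member regions fitted for this pair and did not pass the test, and the next in size, in the Il27 window, had the opposite sign.

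A second Il10 region inside the gene, chr1:131020361-131022856, had counts of 21, 19 and 11 in DMSO, 34, 30 and 32 in LPS and 48, 56 and 49 in LPS+Skatole. Its percentiles were 70.9, 60.0 and 20.9 in DMSO, 76.3, 72.7 and 74.2 in LPS and 84.6, 88.4 and 84.7 in LPS+Skatole. A percentile depends on the length of the list, and by rank from the top DMSO 1 (10916) stood among the LPS+Skatole libraries (12098, 9101 and 12248), which were all ahead of the LPS libraries (13194, 15854 and 16403). Over the genome background the counts were 19.3, 13.6 and 8.10 times in DMSO, 14.8, 13.5 and 13.7 times in LPS and 20.5, 24.8 and 20.5 times in LPS+Skatole. On this scale every LPS+Skatole value was above every value of the other groups, and DMSO and LPS overlapped. This scale is not median centred. Centring took out shifts towards LPS+Skatole of 0.32 over LPS and 0.07 over DMSO on the log2 scale. The log2 difference in summit enrichment was 0.32 for LPS+Skatole over LPS (95% interval -0.30 to 0.94, limma adjusted p = 0.721) and 0.66 for LPS+Skatole over DMSO (95% interval -0.03 to 1.35, limma adjusted p = 0.253). A further region, chr1:131025089-131027321, had its median summit 1042 bases beyond the other end of the gene. It had a peak in DMSO 3 alone among the DMSO libraries (count 22), in all LPS libraries (42, 52 and 34) and in all LPS+Skatole libraries (81, 52 and 72). Its log2 difference of LPS+Skatole over LPS was 0.33 (95% interval -0.27 to 0.92, limma adjusted p = 0.700). All 3 Il10 regions fitted thus had a positive difference of LPS+Skatole over LPS after median centring, none of which passed the test. They come from the same libraries, so the shared sign is not repeated evidence. The share of all regions fitted with a positive difference was not counted. The region chr1:131028855-131030715 was not fitted, with a peak in LPS 1 (11.8 times the background) and LPS+Skatole 1 and 2 (18.4 and 8.40 times). Nor was chr1:131033553-131034031, with a peak in DMSO 2 (17.2 times), LPS 1 (10.9 times) and LPS+Skatole 2 (7.96 times).

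**Figure D4:**
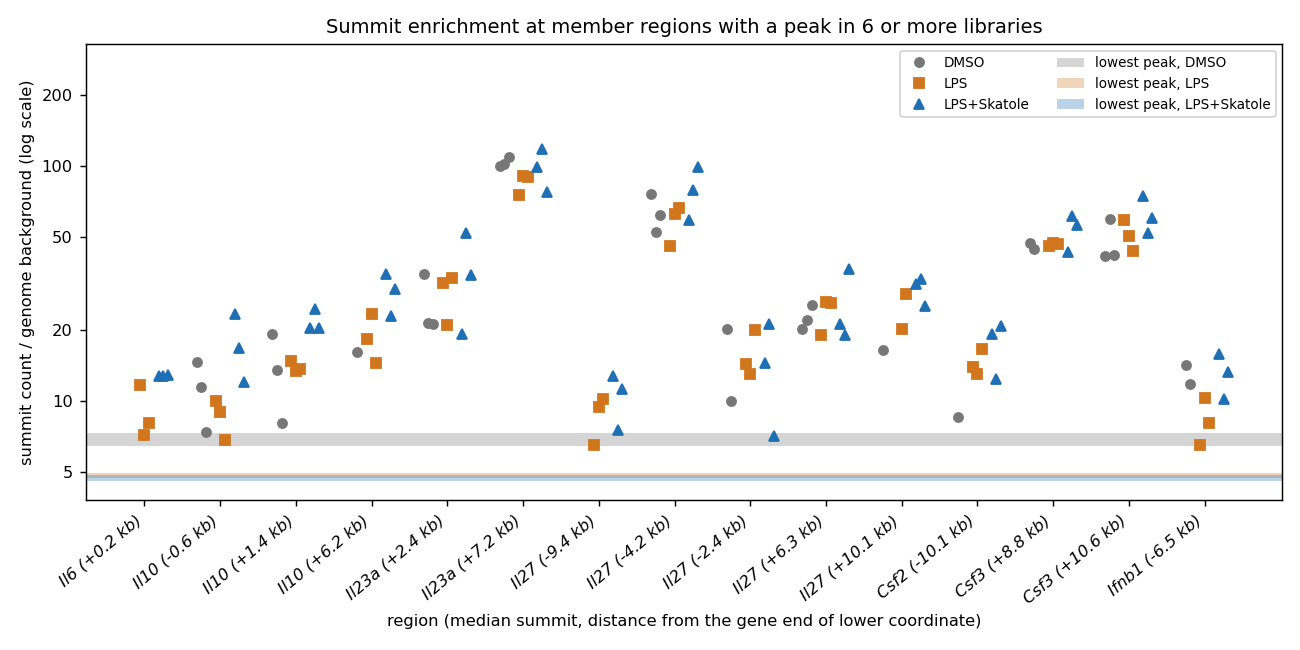
The vertical axis (log scale) plots the summit count divided by the genome background for the member regions with a peak in at least 6 libraries, 1 point per library with a peak, and the bands mark the weakest peak that any library of a group lists. At Il6 the LPS+Skatole points (12.8 to 12.9) lie above the DMSO band of 6.44 to 7.34, into which LPS 2 (7.19) falls. Without median centring, the LPS+Skatole points at the Il10 region near the gene end of lower coordinate lie above the LPS points. Centring takes out a shift of 0.32 towards LPS+Skatole on the log2 scale for this pair.

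Csf2 encodes the granulocyte-macrophage colony-stimulating factor. Its window, chr11:54237270-54259899, held no peak in any DMSO library, 2, 0 and 1 in LPS and 1, 0 and 3 in LPS+Skatole. Most of this number depends on the window edge. The region chr11:54236185-54237586 straddles that edge, about 10 kb from the 3′ end of the gene, and had a peak in DMSO 2, in all 3 LPS and in all 3 LPS+Skatole libraries, of which 4 reached into the window (LPS 1 and 3, LPS+Skatole 1 and 3). Its counts were 12 in DMSO 2, 32, 29 and 39 in LPS and 45, 28 and 50 in LPS+Skatole. The log2 difference of LPS+Skatole over LPS was -0.08 (95% interval -0.74 to 0.58, limma adjusted p = 0.951), and 0.24 without median centring. Nearer to the gene there were 3 peaks, each in 1 library. LPS+Skatole 3 had one with a summit 592 bases inside the gene from its start site (count 24) and one 2223 bases upstream of the start site (count 16), and LPS 1 had one 5041 bases beyond the 3′ end (count 13).

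Csf3 encodes the granulocyte colony-stimulating factor. Its window, chr11:98690183-98713631, held 2, 2 and 1 peaks in DMSO, 3, 4 and 5 in LPS and 5, 7 and 3 in LPS+Skatole. Both LPS-treated groups lay above DMSO without overlap, and LPS+Skatole overlapped with LPS (exact permutation p = 0.7). With lists of equal length, DMSO held 2, 2 and 1 peaks, LPS 2, 4 and 5 and LPS+Skatole 5, 4 and 2, and all 3 groups overlapped. By summits in the window LPS 1 held 2 peaks, since 1 of its 3 straddled the edge, and LPS overlapped with DMSO. The DMSO peaks all lay inside the neighbouring gene Med24. The region chr11:98710327-98711409 had a peak in all 9 libraries there, with counts of 45, 83 and 57 in DMSO, 135, 112 and 102 in LPS and 175, 117 and 144 in LPS+Skatole. Its log2 difference was 0.33 for LPS against DMSO (95% interval -0.12 to 0.77, limma adjusted p = 0.537) and -0.03 for LPS+Skatole against LPS (95% interval -0.45 to 0.38, limma adjusted p = 0.970). With the deposited fold these log2 differences turned to -0.31 and 0.19, and without median centring the second was 0.28.

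Peaks nearest to an end of Csf3 itself were found in no DMSO library, in 2 of 12 LPS peaks and in 5 of 15 LPS+Skatole peaks. The region chr11:98700033-98702037 covers the gene end of lower coordinate and had a peak in LPS+Skatole 1 (count 66) and LPS+Skatole 2 (count 99) only. In the same order the local background was 11.9 and 46.6 and the percentile 73.4 and 37.1. By percentile, the peak with the higher count was thus the weaker one. The region chr11:98703722-98704961, which runs from beside Csf3 into the end of Med24, had a peak in LPS 2 (count 32) and in all 3 LPS+Skatole libraries (40, 40 and 39), and in no DMSO library. With lists of equal length the peak of LPS+Skatole 3 was lost there.

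Ifnb1 encodes interferon beta, a type I interferon with antiviral activity that LPS-treated macrophages release. Its window, chr4:88512025-88532794, held 0, 1 and 1 peaks in DMSO, 1, 3 and 1 in LPS and 2, 3 and 1 in LPS+Skatole, and the groups overlapped. The recurrent region, chr4:88514528-88516363, had its median summit 6537 bases beyond the 3′ end of the gene and a peak in every library except DMSO 1. Its counts were 20 and 16 in DMSO, 15, 23 and 19 in LPS and 37, 23 and 32 in LPS+Skatole. Over the genome background this is 13.0 ± 1.79 times (SD, n = 2), 8.33 ± 1.91 and 13.1 ± 2.83 times (both n = 3). The log2 difference of LPS+Skatole over LPS was 0.33 (95% interval -0.37 to 1.02, limma adjusted p = 0.749). At the promoter shown above, the peak of LPS+Skatole 1 spanned chr4:88522931-88523481 with its summit 317 bases upstream of the start site (count 16, percentile 30.6). LPS 2 had a summit 2201 bases upstream (count 11) and LPS+Skatole 2 one 6365 bases upstream (count 13), and no DMSO library had a peak upstream of the gene.

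**Figure D5:**
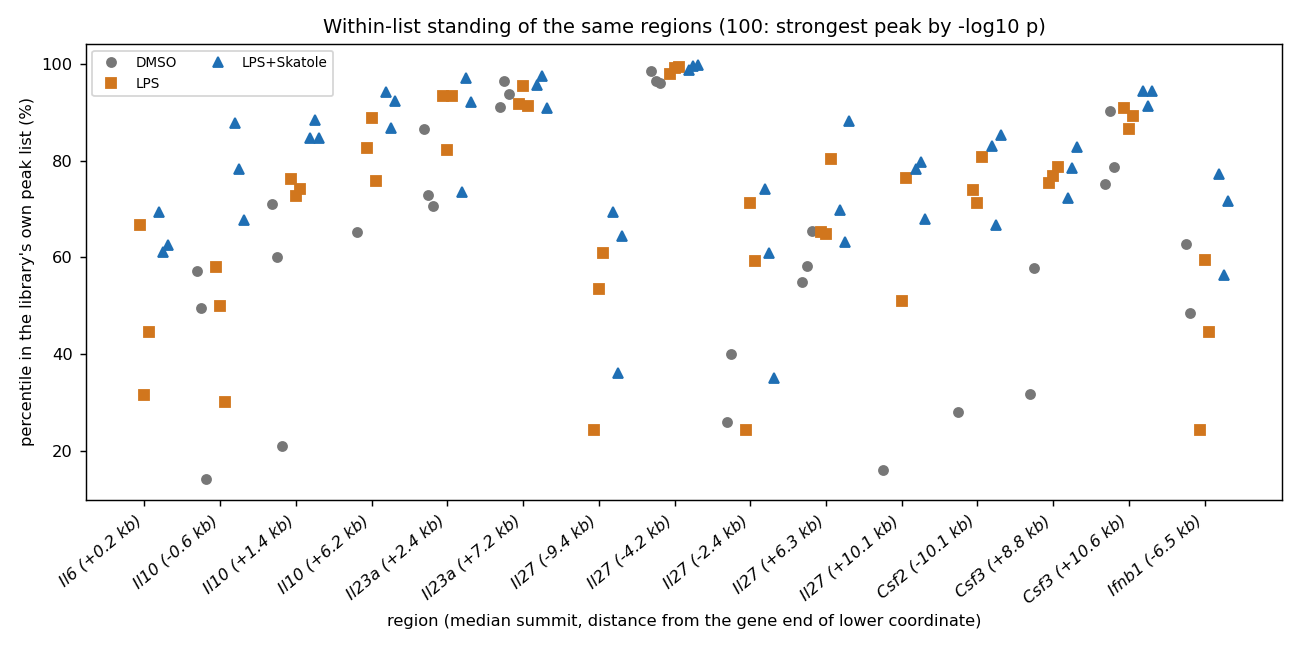
The vertical axis plots the percentile that a peak holds in the list of its own library (100 is the strongest peak by −log10 p) for the member regions with a peak in at least 6 libraries, with 1 point per library at its strongest peak in the region. The strongest region of the Il27 window, beside Apobr, stands between percentiles 96.0 and 99.8, while the Il6 start region lies between 31.6 and 69.3.

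Recurrence was read by gene and by region, and no test compares the members with the rest. By gene, 4 of the 10 members had a peak in all 9 libraries, a lower share than the 54.2% of all genes. By region the order was the other way. Of the 61 member regions, 31 had a peak in 1 library (50.8%, against 71.3% of all regions) and 7 in all 9 (11.5% against 5.88%). All regions include those outside any gene window, and regions in the windows of other genes were not counted apart. The 7 were 2 each at Il10 and Il23a and in the Il27 window, and 1 in the Csf3 window. Only 4 of them had a member as the gene with the nearest end, at Il10, Il23a and Il27, since the others lay at Pan2, Apobr or Med24. Over all libraries the nearest gene end was that of the member itself for 23 of 40 peaks in DMSO, 46 of 70 in LPS and 64 of 89 in LPS+Skatole. These shares are counts over peaks that share libraries and carry no test.

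The genes of the receptors and signalling proteins of these cytokines have longer windows than the members. The median window was 45.2 kb for the receptors, 62.4 kb for the partner and signalling genes, 26.2 kb for the other cytokines and 25.6 kb for the members. Per 10 kb of window, the members held 0.505 peaks on average over the DMSO libraries, 0.883 over those of LPS and 1.12 over those of LPS+Skatole. The receptor genes held 0.601, 0.815 and 0.932 in the same order, the partner and signalling genes 0.531, 1.03 and 1.18, the other cytokine genes 0.239, 0.552 and 0.646, and all genes 0.315, 0.440 and 0.544. No test compares the lists. Of 15 receptor genes, 13 had a peak in all 9 libraries, as had 10 of 11 partner and signalling genes, 6 of 17 other cytokine genes and 4 of the 10 members, against 54.2% of all genes. Without overlap, 4 receptor genes had more peaks in LPS than in DMSO, as had 9 of the partner and signalling genes and 4 of the other cytokines, against 13.1% of genes. For LPS+Skatole against DMSO these numbers were 2, 9 and 6, against 26.0%, and for LPS+Skatole against LPS 1, 1 and 2, against 9.27%. When the lists were cut to equal length, 1 receptor gene, 3 partner and signalling genes and 1 other cytokine lay above DMSO in LPS, while over all genes the number went from 2379 to 531. For LPS+Skatole against DMSO they were then 1, 3 and 2 (4960 to 613 over all genes), and for LPS+Skatole against LPS 0 in each list (1774 to 299), where 1 partner and signalling gene lay below and the number below over all genes went from 151 to 387. By scaled counts, the receptor, partner and other cytokine genes above were 1, 4 and 3 in LPS relative to DMSO, 1, 6 and 5 in LPS+Skatole relative to DMSO and 3, 1 and 0 in LPS+Skatole relative to LPS, next to 752, 2145 and 1368 over all genes. No gene of the 3 lists had fewer peaks without overlap in any of the 3 pairs with the lists as deposited, and none passed an adjusted p of 0.05 in the joint exact permutation test (lowest adjusted p = 0.259).

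Between LPS and DMSO the widest gap in mean peak number was at Stat5b (5, 4 and 3 peaks in DMSO against 9, 9 and 12), a transcription factor downstream of several of these receptors. Il12rb1, a receptor chain of interleukins 12 and 23 (4, 4 and 5 against 13, 6 and 10), and Il34, a ligand of the colony-stimulating factor 1 receptor (3, 4 and 2 against 8, 8 and 9), had equal gaps and were followed by Stat5a (2, 1 and 1 against 5, 5 and 9). Neighbouring genes of these lists can share peaks. The windows of Stat5b and Stat5a overlap, as do those of Stat5a and Stat3, so a peak can count for both genes. The interleukin 6 receptor gene Il6ra had 7, 9 and 10 peaks in DMSO and 13, 12 and 14 in LPS, and Stat2 had 5, 2 and 5 against 7, 8 and 10. Their gaps were equal to those at Stat3 and Tyk2. Between LPS+Skatole and LPS, Jak1, a kinase bound to several of these receptors, had 15, 15 and 14 peaks against 9, 9 and 10. The interferon receptor gene Ifnar2 had 13, 10 and 13 against 6, 9 and 8. Il2 had 3, 2 and 2 against 1, 1 and 1, and Il19, a cytokine of the interleukin 10 family, had 2, 1 and 1 peaks against none. Against DMSO, the widest gaps of LPS+Skatole were at Jak1 (5, 7 and 7 peaks in DMSO), at Stat3, the main transcription factor of interleukin 6 and 10 signalling (2, 3 and 2 in DMSO, 7, 10 and 12 in LPS+Skatole), and at Stat5b (14, 9 and 11 in LPS+Skatole). Jak2 had 3, 4 and 5 peaks in DMSO and 11, 10 and 7 in LPS+Skatole, Il16 had 3, 4 and 6 against 10, 7 and 10, and Il34 had 9, 8 and 6 in LPS+Skatole. The gaps at Il16 and Il34 were equal to those at Stat2 and Stat5a.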

How the data were processed

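CUT&Tag peak lists of 9 libraries were used, 3 each of DMSO, LPS and LPS+Skatole. Of the 10 samples of the series, the Blank sample was not analysed here. The authors called peaks per library, and the caller, its control and its treatment of duplicate reads are not given in the sources used here. A summit count may therefore include copies of the same fragment. The submitters' processing notes name fastp 0.20.1, HISAT2 2.1.0, StringTie 2.0 and the build mm10. The deposited columns are a score, a fold (the ratio of summit signal to local background), and −log10 p and −log10 q values. The score was used only to check the lists. From the authors' fold and −log10 p, the summit count and local background were recovered as those of a Poisson upper tail, and between 99.986% and 99.994% of counts per list were whole within 0.01. The lists hold no total reads. The background shared by most peaks of a list was taken as its genome background and relative depth, and summit counts carry counting error of their own.

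Gene positions came from RefSeq (GRCm38.p6). Summits lay within 250 bp of 14.7% of gene ends, and of 2.63% and 2.62% after a shift of 10000 bp. Peak numbers were tested for every gene by exact permutation tests. Summit enrichment, log2((count + 0.5)/background) centred on the median of all regions fitted, was tested with limma 3.58.1 (R 4.3.3) and Benjamini-Hochberg adjustment at 0.05. Scripts ran in Python 3.11.15 with scipy 1.17.1 and were tested on simulated data. Members and lists were chosen with earlier results of these data known. All 10 members are named, with the region of each seen in most libraries and every gained region. Of the receptor, signalling and other cytokine lists, up to 6 non-overlapping genes per pair are named by the difference of means, ties by symbol. Alternatives covered list length, depth, q, window, merging, pseudocount, centring, filter, the replicate block and each library left out.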

Additional observations from a re-analysis of the deposited data

How the results depend on the processing

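Member regions called by limma stayed at 0 under every alternative. For LPS against DMSO, the ratio of member peak numbers was 1.28 with lists of equal length and 1.36 with scaled counts, and members above without overlap numbered 0 with either, with a 3 kb window or by summits in the window, and 4 with 50 kb. Over all genes these were 531, 752, 1797, 2337 and 5257, against 2379. Between LPS+Skatole and LPS that number was 1 with scaled counts or 50 kb (1368 and 3256 over all genes, against 1774), and 0 to 2 with 1 library left out (2456 to 2963). In LPS+Skatole against DMSO the ratio was 1.59 with equal length and 2.7 with 3 kb, and members above numbered 1 with equal length and 2 with scaled counts or 3 kb (613, 2145 and 3811 over all genes, against 4960). Member regions gained in LPS against DMSO were 0 with equal length, scaled counts or regions built from summits (1399, 1559 and 2272 over all regions, against 2314). In LPS+Skatole against LPS they were 1 with scaled counts, 3 when 2 of 3 libraries sufficed, and 0 to 1 with 1 library left out (1099, 7641 and 1837 to 3365, against 1191). Against DMSO they were 1 with equal length, 0 by summits, 8 when 2 of 3 sufficed, and 4 to 7 with 1 library left out (1972, 3671, 14258 and 5274 to 7673, against 4340). The cause of these shifts was not tested. The replicate block could be fitted, though same-numbered libraries did not vary together (correlations from -0.00998 to 0.0142), and the numbers do not pair the samples. Under the replicate block, 0 member regions were called in each pair, and the regions called higher in LPS+Skatole than in LPS went from 15 to 25 over the whole table.

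Of 307 log2 differences under an alternative, 35 changed sign, and none passed the threshold. With the deposited fold, these were, in LPS against DMSO, Csf3 98710327 (-0.31) and Il27 126593064 (-0.11), for LPS+Skatole against DMSO the same 2 (-0.0786 and -0.22), and between LPS+Skatole and LPS Csf3 98710327 (0.19), Il23a 128302370 (0.0019), Il27 126585996 (0.25) and Il6 (-0.0604). Without centring they were Il27 126582508 for LPS against DMSO (-0.13), and between LPS+Skatole and LPS Csf2 (0.24), Csf3 98708236 (0.18) and 98710327 (0.28), Il23a 128297723 (0.20) and 128302370 (0.19), and Il27 126578256 (0.25) and 126593064 (0.0526). With 1 library left out, the ranges for LPS against DMSO were -0.42 to 0.0747 at Il10 131018172, -0.0298 to 0.59 at Il10 131020361 and -0.0616 to 0.22 at Il27 126582508. In LPS+Skatole against DMSO they were -0.0418 to 0.65 at Il23a 128297723 and -0.25 to 0.23 at Il27 126593064. Between LPS+Skatole and LPS they were -0.21 to 0.17 at Csf2, -0.21 to 0.0115 at Csf3 98708236, -0.17 to 0.11 at Csf3 98710327, -0.43 to 0.26 at Il23a 128297723, -0.25 to 0.0496 at Il23a 128302370, -0.23 to 0.18 at Il27 126578256 and -0.0545 to 0.30 at Il27 126582508.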
